A study of Mus musculus with 8 samples.

Results

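The peroxiredoxin family was followed in every library of a mouse RNA sequencing study of auranofin, a gold-containing anti-rheumatic drug. Its members were all rows of the deposited expression tables whose gene symbol is Prdx1, Prdx2, Prdx3, Prdx4, Prdx5 or Prdx6. These 6 genes were found in both tables, among 18645 listed genes in activated hepatic stellate cells (AHSCs) and 17408 in bone marrow-derived macrophages (BMDMs). Each table held 4 libraries, 2 labelled control and 2 labelled auranofin-treated, so that 8 libraries were examined in all.

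The AHSCs came from the livers of C57BL/6 mice and were exposed to vehicle (labelled untreated) or to 0.03 µM auranofin for 12 h. No age is given for the mice that gave the stellate cells. The BMDMs were grown from the marrow of 8-week-old male C57BL/6 mice for 7 days with macrophage colony-stimulating factor. The cells of all 4 BMDM libraries, controls included, received 100 ng/mL lipopolysaccharide (LPS) and 1 mM ATP. There was no macrophage group without them. In the study's 1 h experiments on these cells, LPS priming for 4 h came before ATP and auranofin. Auranofin was present in the BMDM cultures for 1 h, at 0.1 µM by the sample labels and at 0.3 µM by the study's description of these data, and that difference could not be settled. Nothing says whether replicates came from separate mice or cultures, so the p-values measure the spread between these libraries, which may be technical.

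Peroxiredoxins are abundant enzymes that reduce hydrogen peroxide, organic hydroperoxides and peroxynitrite with a cysteine in their active site. In the typical 2-cysteine members the oxidised cysteine forms a disulfide with a partner subunit, which thioredoxin reduces again, and thioredoxin is in turn reduced by thioredoxin reductase at the expense of NADPH. An active-site cysteine that is oxidised further, to the sulfinic acid, is repaired by sulfiredoxin (Srxn1). Thioredoxin reductases carry a selenocysteine and are the best-known protein targets of auranofin, while macrophages and activated stellate cells both produce peroxides through NADPH oxidases. From protein levels, the study itself reported these enzymes to be lacking in BMDMs and stellate cells. It proposes system Xc, a cystine-glutamate antiporter, as the main target of auranofin there. The values given below are mRNA levels and not protein.

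The defining markers of each culture were checked first. The AHSC libraries expressed all 10 stellate markers examined, with Col1a1 at 927 to 1075 FPKM (fragments per kilobase of transcript per 1000000 mapped fragments), and also all 10 macrophage markers, with Lyz2 at 5379 to 5554 FPKM. The stellate label thus described a mixed culture in these values. The summed FPKM of the macrophage list was 6878 and 6950 in the control AHSC libraries against 6750 and 6786 with auranofin, and that of the stellate list was 4119 and 4201 against 3553 and 3630. Of these markers Clec4f, a Kupffer cell lectin, passed the test as higher and Acta2, smooth muscle actin, as lower. The 7 endothelial markers summed to 184 and 189.9 FPKM in control AHSC libraries and to 182 and 194 with auranofin, and Stab2 and Clec4g passed as lower. Hepatocyte markers summed to at most 1.73 FPKM, and Apoa1 was listed at 0 in both auranofin libraries. The part these markers had in the results on AHSCs was not tested. In a bulk sample, fewer cells of a type and less RNA per cell cannot be told apart. The BMDM libraries had macrophage marker sums of 6923 to 7816 FPKM and stellate sums of at most 11.8 FPKM, with the Kupffer marker Clec4f at or near 0.

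One library stood apart. Among 4245 genes averaging 10 FPKM or more in BMDMs, 368 (8.67%) and 377 (8.88%) differed at least 2-fold between auranofin replicate 1 and the control libraries, and 383 (9.02%) between the replicates of auranofin. The other pairs of BMDM libraries differed at 12 to 15 genes and the AHSC pairs at 13 to 35 of 6430 genes. The median over all 9232 genes tested in BMDMs lay 0.18 log2 units above the control mean in auranofin replicate 1 and 0.005 above it in replicate 2. BMDM values are therefore given for each library, and the calls with and without this one.

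The members lie on separate chromosomes apart from Prdx3 and Prdx5. In the GRCm38 build, which the files name as mm10, RefSeq places Prdx1 at chr4:116685599-116700000, Prdx2 at chr8:84969622-84974811, Prdx3 at chr19:60864066-60874538, Prdx4 at chrX:155323918-155342272, Prdx5 at chr19:6906697-6910106 and Prdx6 at chr1:161240112-161251210. Prdx1 was the one member that passed the test in AHSCs, so the 250 bases before its transcription start are shown. The sequence is from RefSeq (GRCm38.p6, plus strand, chr4:116685349-116685598), and the capitals mark the match to TGACNNNGC, the core letters of the antioxidant response element bound by NRF2.
Prdx1 upstream sequence: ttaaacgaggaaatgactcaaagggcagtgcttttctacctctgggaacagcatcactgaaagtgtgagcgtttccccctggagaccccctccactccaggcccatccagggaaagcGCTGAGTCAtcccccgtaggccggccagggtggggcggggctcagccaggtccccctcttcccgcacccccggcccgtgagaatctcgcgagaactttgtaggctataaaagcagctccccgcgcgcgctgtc

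The match lies on the minus strand at chr4:116685466-116685474. Both strands were searched in windows from 250 bases before to 50 bases after each start. Of 32851 such windows in the RefSeq table, 12.4% held TGACNNNGC, so a match is common. The Prdx1 match overlaps one of TGANTCA, the core of the AP-1 element, and a further match of TGANTCA lies nearer the 5′ end of the same window. TGANTCA was found in 7.81% of all windows. The windows of Prdx2, Prdx3, Prdx4 and Prdx5 held neither run of letters, and no window was at hand for Prdx6. Among the partner genes described below that passed the test in AHSCs, 5 had a window and 3 of these held TGACNNNGC. Of the other partner genes 22 had a window and 3 held it, namely Sesn2, Pdia3 and Txndc5. Of all 27025 genes with a window, 14.0% held it. TGANTCA lay before the start of Srxn1 (offsets −102 and −45) and Gstp1 (−74), which both passed, and of Glrx, which did not. Of all genes with a window, 8.97% held TGANTCA. The TGACNNNGC sites of the 3 partner genes that held it and passed are shown for comparison with that of Prdx1. Each has 10 bases on either side and the match in capitals.
Prdx1: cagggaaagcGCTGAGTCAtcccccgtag
Txnrd1: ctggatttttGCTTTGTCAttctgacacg
Srxn1: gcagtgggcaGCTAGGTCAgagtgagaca
Sod1: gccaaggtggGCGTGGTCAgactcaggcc

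The matches of the last 3 genes lie at chr10:82859114-82859122, chr2:152105552-152105560 and chr16:90220706-90220714. The Txnrd1 match is in 1 of its 3 windows, and the Srxn1 match lies 28 bases after the start. Such a match is a run of letters and not a measured binding site.

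In AHSCs, 12149 genes that averaged 1 FPKM or more were tested with limma on log2(FPKM + 1), a gene being called at a Benjamini-Hochberg adjusted p under 0.05 over all of them. All 6 peroxiredoxins passed the filter on low values. One, Prdx1, was called higher with auranofin and 0 were called lower, beside 1.24% of all genes called higher and 1.09% called lower. By a second rule, a change of at least 1.5-fold with an unadjusted p under 0.05, Prdx1 again was the one member called, beside 0.576% of all genes in either direction. The median log2 fold change of the 6 members was 0.06, beside 0.005 for all genes tested, and it was 0.02 without auranofin replicate 1, 0.03 without control replicate 2, 0.10 without control replicate 1 and 0.12 without auranofin replicate 2.

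Prdx1, a cytosolic typical 2-cysteine peroxiredoxin, was at 1062 and 986 FPKM in the control AHSC libraries and at 2113 and 2007 FPKM with auranofin. Both treated libraries lay well above both controls. The group means were 1024 ± 54.0 and 2059.9 ± 75.2 FPKM (± SD of 2 libraries), a ratio of 2.01. The log2 fold change was 1.01 (SE 0.0495, 95% confidence interval 0.89 to 1.13), with an adjusted p of 0.0018 by limma. It ranked 25 of 12149 by log2 fold change, and its gain of 1036 FPKM was the third largest. By its level Prdx1 stood at ranks 27 and 36 among the 18645 listed genes in the control libraries and at ranks 9 and 10 with auranofin. With gene-wise variances in place of limma's moderated ones the fold change was the same and the adjusted p was 0.281.

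Prdx2 is the other cytosolic typical 2-cysteine member, best known from red blood cells. Its levels were 149.6 and 148 FPKM in the control AHSC libraries and 147 and 143 FPKM with auranofin. The treated values lay below the controls by a small margin. The log2 fold change was −0.04 (95% confidence interval −0.12 to 0.04) with an adjusted p of 0.603 by limma.

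Prdx3, the typical 2-cysteine enzyme of the mitochondrial matrix, was at 35.6 and 31.5 FPKM in control and at 37.5 and 37.1 FPKM in auranofin-treated AHSCs. The groups did not overlap, but the controls differed from each other by more than the gap between the groups. The log2 fold change was 0.15 (95% confidence interval 0.002 to 0.30), with an unadjusted p of 0.0477 and an adjusted p of 0.276 by limma. Without control replicate 1 it was 0.24 with an adjusted p of 0.0412, and 2 members were then called. Prdx2 and Prdx3 were, with Prdx1, the members whose groups did not overlap, 2 higher and 1 lower, beside 26.2% and 23.9% of all genes.

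Prdx4, the member that works inside the endoplasmic reticulum and passes peroxide oxidation on to folding proteins, was at 81.1 and 75.9 FPKM in control and at 84.2 and 79.6 FPKM in treated AHSCs. Prdx5 is an atypical 2-cysteine enzyme, found in mitochondria, peroxisomes and cytosol, that forms its disulfide within 1 subunit. It was at 322 and 301 FPKM in control and at 328 and 316 FPKM in treated AHSCs. Prdx6, the 1-cysteine member, which is reduced through glutathione and also has phospholipase activity, was at 34.5 and 33.7 FPKM in control and at 37.5 and 33.8 FPKM in treated AHSCs. In all 3 genes the control and treated libraries overlapped. Their log2 fold changes were 0.06 (95% confidence interval −0.06 to 0.18), 0.05 (−0.06 to 0.16) and 0.06 (−0.08 to 0.20) in that order, with adjusted p-values by limma of 0.569, 0.634 and 0.624. These intervals, like that of Prdx2, leave out a change of the size seen for Prdx1.

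**Figure D1:**
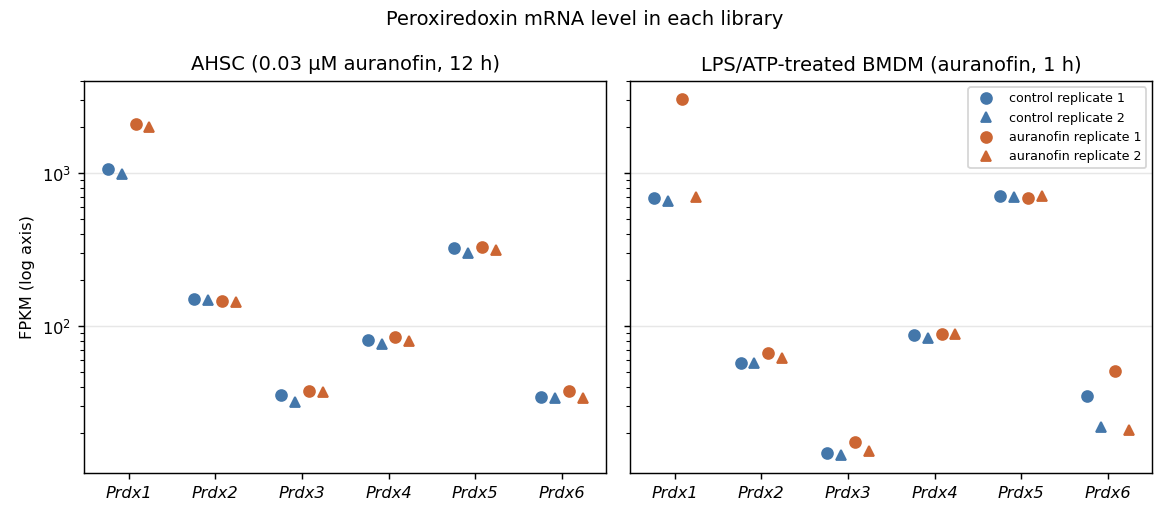
FPKM of each peroxiredoxin (log axis) in each library of AHSCs, left, and of LPS/ATP-treated BMDMs, right, with control libraries in blue, auranofin libraries in orange, circles for replicate 1 and triangles for replicate 2. Prdx1 was at 2113 and 2007 FPKM in both treated AHSC libraries but at 3075 FPKM in one treated BMDM library and at 695 FPKM in the other.

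In BMDMs, 9232 genes were tested in the same way and all 6 members passed the filter. None was called by limma in either direction at an adjusted p under 0.05, and 0 had an unadjusted p under 0.05, beside 1 gene called among all those tested (0.0108%) and 0.531% at an unadjusted p under 0.05. The called gene, Gm12070, was looked up after its value was seen. By the 1.5-fold rule 0 members were called, beside 0.152% of all genes. The groups did not overlap for 4 members, Prdx1, Prdx2, Prdx3 and Prdx4, each higher with auranofin, beside 26.3% of all genes, and 0 members lay wholly lower, beside 12.6%. The median log2 fold change of the members was 0.16, beside 0.09 for all genes tested. It was 0.05 without auranofin replicate 1, 0.08 without control replicate 2, 0.24 without auranofin replicate 2 and 0.07 with each library centred on its median.

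Prdx1 was at 687 and 654 FPKM in the control BMDM libraries, at 3075 FPKM in auranofin replicate 1 and at 695 FPKM in auranofin replicate 2. The treated libraries thus differed 4.42-fold from each other, and replicate 2 lay just above the controls. The fitted log2 fold change was 1.12 (SE 0.77, 95% confidence interval −1.0 to 3.25), with an adjusted p of 0.721 by limma. Without auranofin replicate 2 it was 2.20 with an adjusted p of 3.45e-05, and without auranofin replicate 1 it was 0.05 with an adjusted p of 0.730. In each of these fits the lone treated library was assumed to vary like the controls. In AHSCs, at another dose and time, the treated libraries lay 1.05 and 0.97 log2 units above their own control mean. Auranofin replicate 2 of the BMDMs, where Prdx1 stayed near its control level, was close to the controls in most genes. It differed from them at least 2-fold in 15 and 12 of 4245 genes averaging 10 FPKM or more.

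The BMDM values of Prdx2 were 57.2 and 57.1 FPKM in control and 66.3 and 62.1 FPKM in auranofin libraries. Prdx3 was at 14.6 and 14.3 FPKM in control and at 17.5 and 15.1 FPKM in auranofin libraries. For both genes both treated libraries lay above the controls, replicate 1 the farther. Their log2 fold changes were 0.16 (95% confidence interval −0.13 to 0.46) and 0.16 (−0.19 to 0.51), each with an adjusted p of 0.721 by limma. Prdx4 was at 87.4 and 83.1 FPKM in control and at 88.4 and 88.2 FPKM in treated BMDMs, a log2 fold change of 0.05 (95% confidence interval −0.24 to 0.34). Centring each library on its median gave 0.07 for Prdx2, 0.07 for Prdx3 and −0.04 for Prdx4.

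Prdx5 was at 712 and 697 FPKM in control BMDMs and at 689.7 and 715 FPKM with auranofin. Its level in auranofin replicate 1 differed little from the other libraries, with a log2 fold change of −0.005 (95% confidence interval −0.30 to 0.29) over all 4. Prdx6 was at 35.0 and 21.8 FPKM in control and at 51.0 and 20.7 FPKM in treated BMDMs. These 4 values overlapped widely, and the control replicates differed 1.61-fold, more than 99.2% of the genes tested did between the same libraries. The log2 fold change of Prdx6 was 0.23 (95% confidence interval −1.19 to 1.66). Without auranofin replicate 2, 4 members were called higher by limma, Prdx1, Prdx6 (0.86, adjusted p 0.0375), Prdx3 (0.26, adjusted p 0.0122) and Prdx2 (0.21, adjusted p 0.0106), but so were 4201 of the 9285 genes then tested, and 1850 were called lower. Without auranofin replicate 1, 0 members were called at an adjusted p under 0.05 and Prdx2 alone had an unadjusted p under 0.05 (0.0427).

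**Figure D2:**
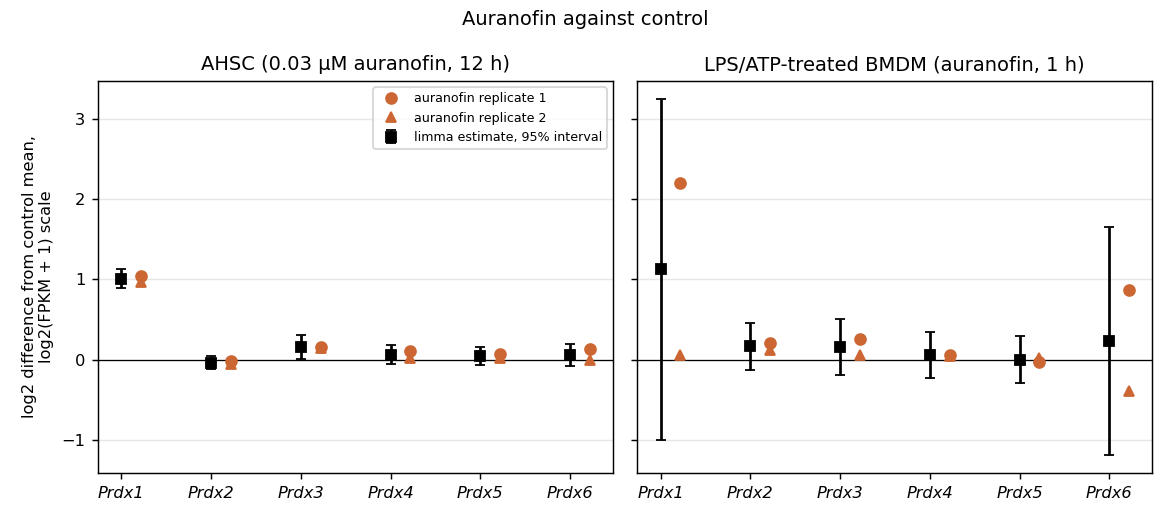
Difference between auranofin and control on the log2(FPKM + 1) scale for each peroxiredoxin in AHSCs, left, and BMDMs, right, with black squares and bars for the limma estimate and its 95% confidence interval and orange symbols for each treated library against the control mean. The interval of Prdx1 runs from 0.89 to 1.13 in AHSCs and from −1.0 to 3.25 in BMDMs, where the libraries lie at 2.20 and 0.05.

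Steps between the lowest FPKM values put the depth at 29800000 to 39400000 fragments in the AHSC libraries and at 27500000 to 34900000 in the BMDM libraries. At that depth Prdx3, the lowest member in BMDMs, had an estimated 580 to 903 fragments in a BMDM library, a counting error of 3.33% to 4.15%, and Prdx1 had at most 0.492%. The smallest differences given above, such as that between the group means of Prdx5 in BMDMs and that of Prdx3 between control replicate 1 and auranofin replicate 2 there, are no larger than the counting error. These figures cover counting error only.

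The make-up of the peroxiredoxin pool is set out within each library, where it does not depend on how that library was scaled. The 6 members summed to 1631 ± 77.5 FPKM in control AHSCs and to 2682 ± 92.4 FPKM with auranofin (SD, n = 2 each). Prdx1 made up 63.0% and 62.6% of that sum in the controls and 76.9% and 76.7% with auranofin. The share of Prdx5 went from 19.1% in both control libraries to 11.9% and 12.1%. Its own level did not fall, at 322 and 301 FPKM in control and 328 and 316 FPKM in treated libraries, so its lower share reflects the larger sum. The ratio of Prdx1 to Prdx5 was 3.30 and 3.28 in controls and 6.44 and 6.35 with auranofin, which was further apart than the replicates. These shares are given as a description and were not tested. The smallest two-sided p that an exact permutation of 2 libraries against 2 allows is 0.3333.

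In control BMDMs Prdx5 and Prdx1 held nearly equal shares, 44.7% and 45.6% for Prdx5 against 43.1% and 42.8% for Prdx1. Auranofin replicate 2 had the same make-up, with 44.8% Prdx5 and 43.5% Prdx1. In auranofin replicate 1 Prdx1 held 77.1% and Prdx5 17.3%, and the ratio of Prdx1 to Prdx5 was 4.46 there against 0.966, 0.939 and 0.972 in the other libraries. The level of Prdx5 itself was 689.7 FPKM there and 712, 697 and 715 FPKM in those libraries. The sum of the 6 members was 1594, 1528 and 1596 FPKM in those libraries and 3988 FPKM in replicate 1.

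**Figure D3:**
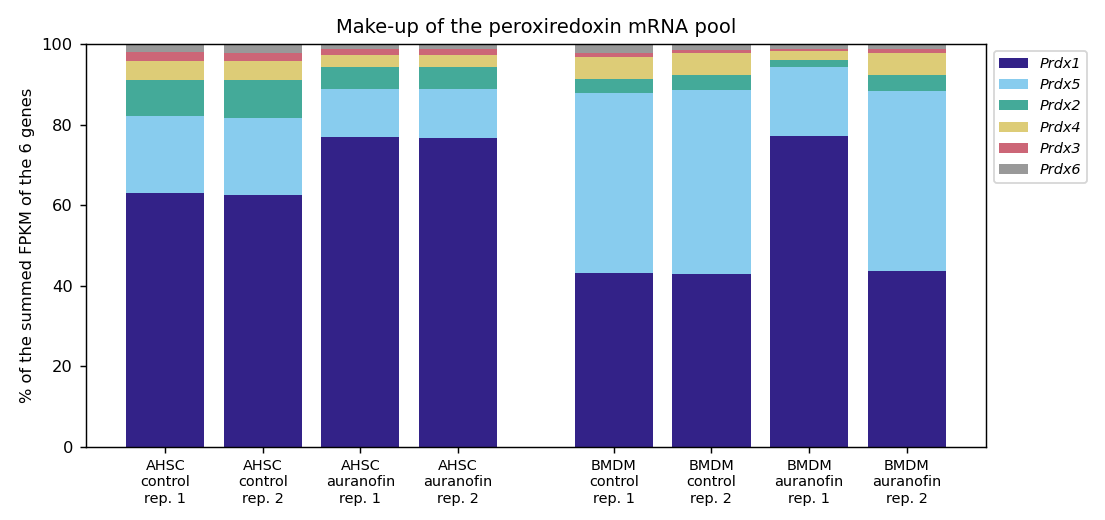
Share of each member in the summed FPKM of the 6 peroxiredoxins, as stacked bars from 0 to 100%, one bar for each library. Prdx1 holds 62.6% to 63.0% in control and 76.7% to 76.9% in treated AHSCs, and in BMDMs 42.8% to 43.5% in 3 libraries and 77.1% in auranofin replicate 1.

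The order of the members differed between the control cultures, which were normalised in separate tables and differ in tissue and treatment, so no test across them was made. In control AHSCs it ran from Prdx1 (1024 FPKM) through Prdx5 (312), Prdx2 (149) and Prdx4 (78.5) to Prdx6 (34.1) and Prdx3 (33.5). The replicates of neighbours did not overlap except for Prdx6 and Prdx3. In control BMDMs it ran from Prdx5 (704 FPKM) and Prdx1 (671) through Prdx4 (85.3), Prdx2 (57.2) and Prdx6 (28.4) to Prdx3 (14.4), with no overlap between neighbours. The ratio of Prdx2 to Prdx4 was 1.84 and 1.95 in control AHSCs and 0.655 and 0.687 in control BMDMs, on opposite sides of 1. Auranofin libraries kept the order of Prdx2 and Prdx4, with ratios of 1.74 and 1.80 in AHSCs and 0.750 and 0.704 in BMDMs.

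Some members share sequence with other genes. Of the 50-base words of the Prdx1 transcript, 10.9% also occur in the transcripts of 3 processed pseudogenes, so part of its reads may be ambiguous. For Prdx2 the share was up to 24.0%, of which at most 9.65% of words were on the same strand. For Prdx5 it was 29.7%, all from Trmt112 on the opposite strand. The library kit keeps the strand, but whether counting used it is not given in the sources used here. Prdx3 shared no such word, and neither did the Prdx4 transcript that was searched. The rows of Prdx2 and Prdx4 stand for 2 transcripts each, of which 1 was searched for Prdx4. Prdx6 shared at most 0.769% with Prdx6b, and its row stands for 3 transcripts of 959 to 2387 bases, so its FPKM also depends on how reads were split between them.

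The enzymes that recycle, repair or work beside the peroxiredoxins were taken as 31 partner genes in 5 lists. In AHSCs all 31 were tested, 6 were called higher and 0 lower. Groups did not overlap for 16 that were higher and 3 that were lower, beside 26.2% and 23.9% of all genes. The 31 genes had a median log2 fold change of 0.07. Sets of this kind were chosen with earlier results of these data known, and their counts are a description beside the 1.24% of all genes called higher.

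Among the 9 reductants, 3 were called higher in AHSCs. Txnrd1, the cytosolic thioredoxin reductase, was at 123 and 114 FPKM in control and at 194 and 179.7 FPKM in treated libraries, a log2 fold change of 0.65 (adjusted p 0.0073 by limma). Gsr, glutathione reductase, was at 38.0 and 33.0 FPKM in control and at 59.4 and 55.0 FPKM in treated libraries (0.68, adjusted p 0.0144). Gstp1, a glutathione S-transferase that can load glutathione onto Prdx6, was at 105 and 101 FPKM in control and at 142 and 136 FPKM in treated libraries (0.43, adjusted p 0.0101). In these 3 genes both treated libraries lay above both controls. Txn1, the cytosolic thioredoxin that reduces Prdx1 and Prdx2, was at 262 and 243 FPKM in control and at 303 and 298 FPKM in treated libraries, and with a log2 fold change of 0.25 its adjusted p of 0.0551 by limma missed the threshold.

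Among the 5 genes of repair and restraint, 1 was called. Srxn1, the sulfiredoxin that repairs hyperoxidised 2-cysteine peroxiredoxins, was at 55.7 and 52.3 FPKM in control and at 128 and 118 FPKM in treated AHSCs. Its log2 fold change of 1.18 (SE 0.0539, adjusted p 0.0017 by limma) was close to that of Prdx1. The ratio of Prdx1 to Srxn1 was 19.1 and 18.9 in control libraries and 16.4 and 17.0 with auranofin. Txnip, which binds thioredoxin and holds it back, was at 47.1 and 50.4 FPKM in control and at 54.4 and 56.7 FPKM in treated libraries (0.18, adjusted p 0.127).

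Of the 6 other peroxide-removing enzymes, catalase (Cat) was called, at 121 and 111 FPKM in control and at 232 and 226 FPKM in treated AHSCs (0.97, adjusted p 0.0018 by limma). Gpx1, a glutathione peroxidase, was at 39.6 and 38.5 FPKM in control AHSCs but at 31.8 and 121 FPKM with auranofin, and its treated libraries lay on opposite sides of the controls (0.66, adjusted p 0.591). Of the 3 superoxide dismutases, which produce hydrogen peroxide, Sod1 was called, at 361 and 355 FPKM in control and at 451 and 438 FPKM in treated libraries (0.31, adjusted p 0.0140). None of the 8 genes of oxidative folding in the endoplasmic reticulum, the compartment of Prdx4, was called by limma, and their median log2 fold change was 0.04.

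In BMDMs 27 of the partner genes were tested, all but Sesn1, Gpx7, Gpx8 and Sod3, which did not pass the filter. None was called by limma, and 1, Gpx1, had an unadjusted p under 0.05. Gpx1 was at 133 and 124 FPKM in control and at 42.1 and 32.6 FPKM in treated BMDMs, with both treated libraries below both controls. limma put the log2 fold change at −1.77 (unadjusted p 0.000441, adjusted p 0.721). Without auranofin replicate 1 it was −1.94 with an adjusted p of 0.0016.

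Several partner genes were high in the same library as Prdx1. Srxn1 was at 18.1 and 17.3 FPKM in control BMDMs, at 385 FPKM in auranofin replicate 1 and at 17.3 FPKM in replicate 2. Txnrd1 was at 89.2 and 91.9 FPKM in control, 582 FPKM in replicate 1 and 85.3 FPKM in replicate 2. Cat was at 15.6 and 16.7 FPKM in control, 77.4 FPKM in replicate 1 and 15.4 FPKM in replicate 2. For all 3, replicate 2 was within or below the controls. Gsr had 17.4 FPKM in both control libraries, 55.9 FPKM in replicate 1 and 16.5 FPKM in replicate 2, and Txnip had 40.9 and 42.1 FPKM in control, 79.2 FPKM in replicate 1 and 42.3 FPKM in replicate 2. Txn1 varied less, at 321 and 303 FPKM in control, 360.0 FPKM in replicate 1 and 336 FPKM in replicate 2. Of the 27 genes, 9 lay at least 1.5-fold above the control mean in replicate 1 and 0 in replicate 2. In each replicate 1 gene, Gpx1, lay as far below the control mean. The share of all genes past this cut was not worked out, so the count cannot be read as particular to these genes. At 2-fold, in either direction, replicate 1 differed from the control libraries in 8.67% and 8.88% of genes averaging 10 FPKM or more. Without auranofin replicate 2, 28 partner genes were tested and 20 were called higher by limma and 3 lower, beside 4201 higher and 1850 lower of all 9285 genes, and without auranofin replicate 1 none was called higher and 1, Gpx1, lower.

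**Figure D4:**
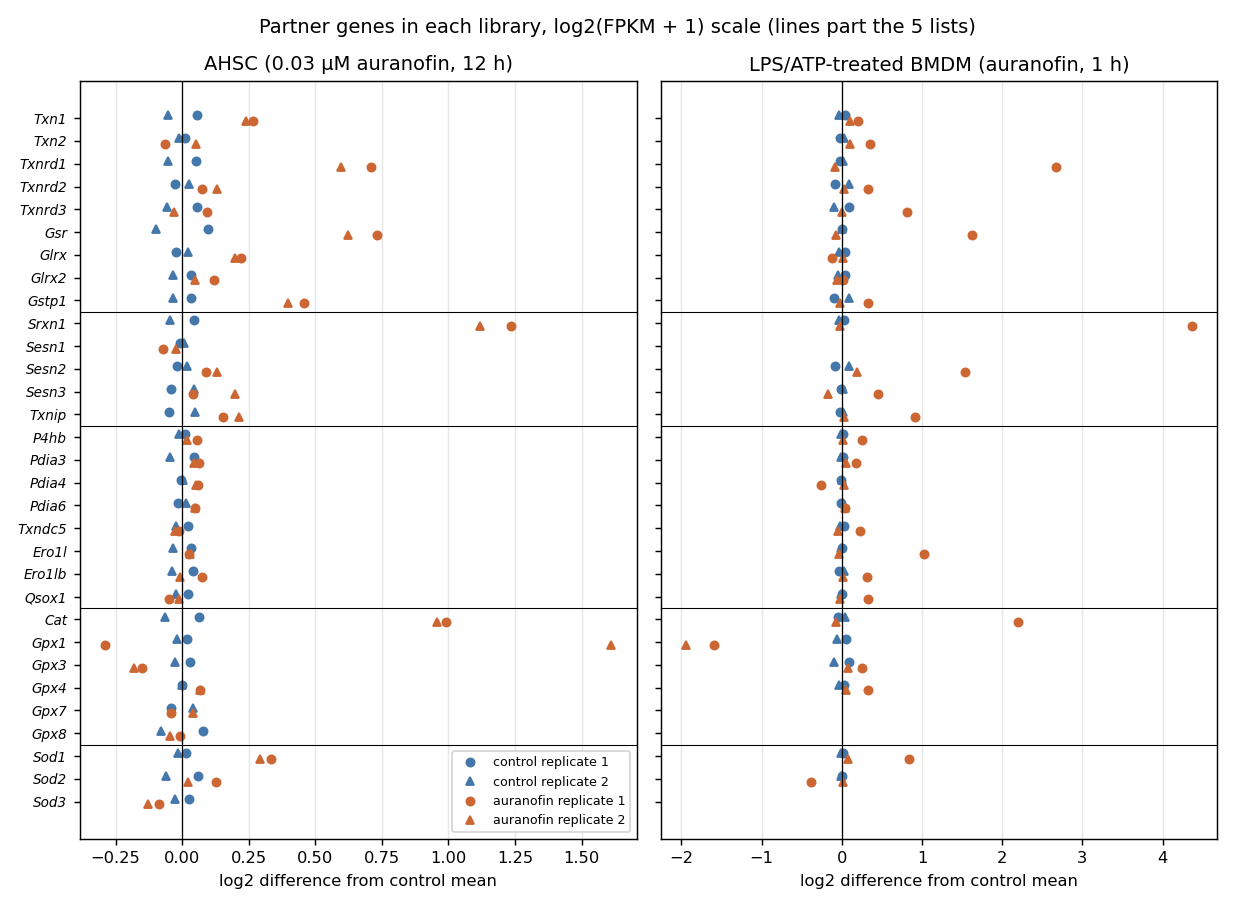
Difference from the control mean on the log2(FPKM + 1) scale for each partner gene in each library, by list, with AHSCs left and BMDMs right on separate scales. In AHSCs both treated libraries of Srxn1, Cat, Gsr and Txnrd1 stand to the right, while in BMDMs auranofin replicate 1 alone does, with Gpx1 to the left in both.

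Prdx1 was the member with the widest range over the 8 libraries when each value was set against its own table's control mean, 2.25 log2 units, followed by Prdx6 (1.26), Prdx3 (0.35), Prdx2 (0.26), Prdx4 (0.15) and Prdx5 (0.12). Of 8963 genes tested in both tables, the 5 whose profile lay nearest to that of Prdx1 by Euclidean distance were Cat (0.174), Slc48a1 (0.385), a heme transporter, Cyb5a (0.479), a cytochrome b5, Esd (0.546), an esterase, and Pgd (0.582), a dehydrogenase of the pentose phosphate pathway. The 8 libraries come from separately normalised tables, and the distance is set mostly by the 3 treated libraries in which Prdx1 was high. In auranofin replicate 1 of the BMDMs these 5 genes lay 1.72 to 2.30 log2 units above the control mean, against 2.20 for Prdx1. That library took part in the choice of the genes, so their nearness to Prdx1 there follows from the choice.

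**Figure D5:**
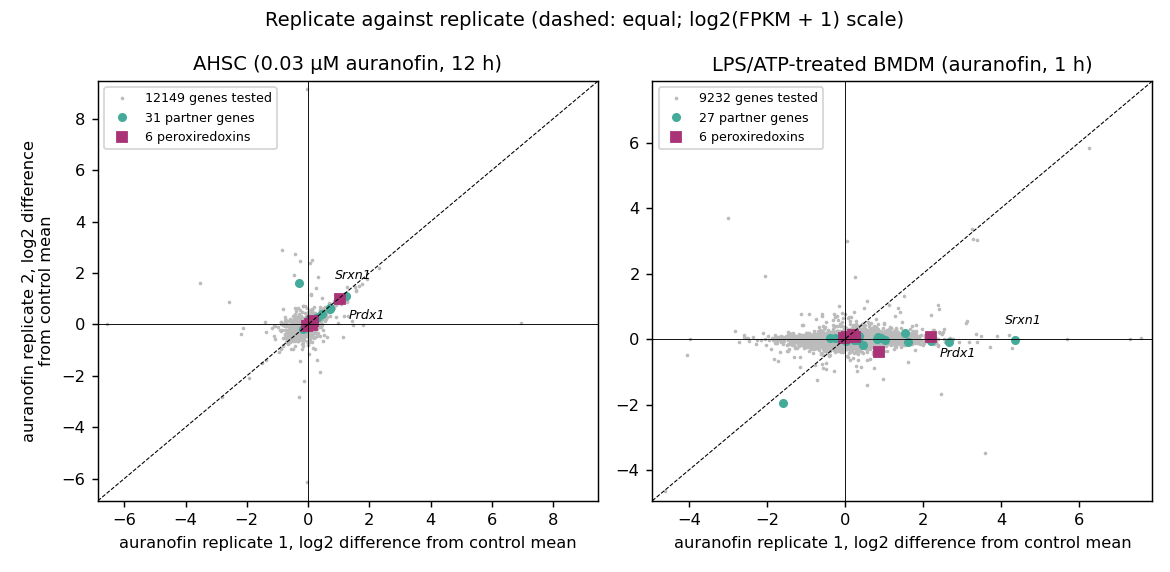
Difference from the control mean in auranofin replicate 1 (horizontal) and replicate 2 (vertical) on the log2(FPKM + 1) scale, for all genes tested (grey), the partner genes (green) and the 6 peroxiredoxins (purple), with a dashed line where replicates are equal. In AHSCs Prdx1 lies near that line at 1.05 and 0.97, and in BMDMs it lies along the horizontal axis at 2.20 and 0.05, within a cloud that is itself spread along that axis.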

How the data were processed

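Messenger RNA of cultured mouse cells was sequenced in 8 stranded libraries. The authors deposited FPKM values, 1 per gene and library, in a table for each cell type. Per the labels they used mm10, with CASAVA, FastQC 0.11.7, Trimmomatic 0.38, HISAT2 2.1.0 and StringTie 1.3.4d, whose settings are not given in the sources used here. No counts were used. Genes averaging 1 FPKM or more in a table were tested on log2(FPKM + 1), so fold changes of low genes are understated, with limma 3.58.1 (R 4.3.3; lmFit, eBayes with trend) and Benjamini-Hochberg adjustment over all genes of that table. Tables were never tested against each other. The code was tested on simulated data with the spread of each table and 200 genes changed 2-fold. At an adjusted p under 0.05, limma recovered 182 of them with the AHSC spread, with 7 false calls. With the BMDM spread it recovered 0, with 0 false calls. The lack of calls in BMDMs therefore does not show that 2-fold changes were absent. Depth was estimated from low FPKM values (under 0.2) that equal 1 fragment within 1%. The 6 peroxiredoxins, Srxn1, Txn1, Txnrd1, Txnip and Gpx1 were always named, with the called partner genes (at most 5 each way per table) and the 5 genes nearest to the widest-ranging member. Members and lists were chosen with earlier results of these data known. Alternatives changed the pseudocount, filter, scaling, variance model, replicate block and libraries.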

Additional observations from a re-analysis of the deposited data

Results flagged for a closer look

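Prdx2 lay on opposite sides of its controls in the 2 cell types. Both treated AHSC libraries were below both controls (log2 fold change −0.037), as for 23.9% of all genes there. Both treated BMDM libraries were above both controls (0.164), as for 26.3% of all genes there. With each library centred on its median the log2 fold changes were −0.048 and 0.072. The difference was not tested, since the tables were normalised separately and differ in dose and time, and neither change passed its own test.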

How the results depend on the processing

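In AHSCs the count of peroxiredoxins called higher was 1 under all alternatives that kept all libraries except gene-wise variances without moderation, which gave 0, and 1 to 2 when each library was left out in turn. The adjusted p of Prdx1 ranged from 1.12e-05 to 0.0345 apart from those unmoderated variances (0.281). Partner genes called higher in AHSCs numbered 6, but 2 with no filter on low values (Cat and Srxn1) and 0 without moderation. Over all AHSC genes, 151 higher and 132 lower became 40 and 9 with no filter, 85 and 44 without a variance trend, 0 and 0 without moderation, 279 and 238 without control replicate 1, and 96 and 83 without auranofin replicate 1. Over all BMDM genes, 1 higher and 0 lower became 4201 and 1850 without auranofin replicate 2 and 8 and 7 without auranofin replicate 1. Txn1 passed the threshold with a minimum of 5 FPKM (adjusted p 0.0423), rescaling to equal sums (0.0482), quantile normalization (0.0458), a replicate block (0.0413) or without control replicate 1 (0.00726). Sod1 did not pass without a variance trend (0.0638) or without auranofin replicate 1. Leaving out a BMDM library gave 0 to 4 peroxiredoxins called higher, 0 to 2 by the 1.5-fold rule, 0 to 20 partner genes called higher and 0 to 3 called lower, the upper ends all without auranofin replicate 2, when the partners called lower were Gpx1, Pdia4 and Sod2. With 1 library left in an arm, it was assumed to vary like the other group. Directions turned, with the cause not tested, for AHSC Prdx5 without control replicate 2 (−0.002, range over libraries left out up to 0.096), AHSC Prdx6 without auranofin replicate 1 (−0.0118, up to 0.132) and AHSC Gpx1 without auranofin replicate 2 (−0.289, up to 1.61). In BMDMs they turned for Prdx4 when centred on the median (−0.0413), Prdx5 without control or auranofin replicate 1 (0.0104 and 0.0209), Prdx6 without control replicate 2 (−0.097) or auranofin replicate 1 (−0.397), and, without auranofin replicate 1, Txnrd1 (−0.0843), Gsr (−0.0768), Gstp1 (−0.0165), Srxn1 (−0.0281) and Cat (−0.0667). The other end of each range, without auranofin replicate 2, was −0.0305 for Prdx5, 0.862 for Prdx6, 2.67 for Txnrd1, 1.63 for Gsr, 0.328 for Gstp1, 4.37 for Srxn1 and 2.19 for Cat. Same-numbered libraries shared little but the number (correlation of deviations 0.109 in AHSCs and −0.0551 in BMDMs, over 2 pairs each). With a replicate block AHSCs gave 1 peroxiredoxin and 7 partner genes higher, and BMDMs 0 and 0, with all-gene counts of 148 higher and 134 lower in AHSCs. With 2 libraries a group, only changes well beyond the replicate spread could pass.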
